A study of Caenorhabditis elegans with 42 samples.

Results

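The numbered col genes of the nematode Caenorhabditis elegans are the large set of collagen genes that carry the symbol col followed by a number. They were taken by that symbol alone from the expression tables, whose lines name each annotated transcript and its gene, and 160 of 30304 genes qualified. Each gene was represented by its transcript with the largest sum of means, which mattered for the 10 members with more than 1 transcript. The members were then grouped by their level in the wildtype at each stage.

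The study examined whether loss of the editing enzymes of the ADAR family alters gene expression during development. The worm has a pair of such genes: adr-2 encodes the deaminase that turns adenosine into inosine in double-stranded RNA, and adr-1 encodes a related RNA-binding protein that regulates this editing. RNA of whole embryos and of whole L4 larvae, the last larval stage, was sequenced from the wildtype N2 and from 4 mutant strains, with 30 libraries in all. A second set of 12 libraries came from young adults of 3 other strains and held the RNA that an antibody to a FLAG tag recovered, or its input.

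The adr-1 mutants were BB19, with the allele tm668, and BB2, with gv6. The adr-2 mutants were RB886, with ok735, and BB3, with gv42. The deposited tables that hold the RB886 values spell the strain RB668 and give the allele ok735, and they were matched to RB886 on that allele. By the labels, embryo libraries numbered 4 for N2, 2 for BB2 and 3 for each other mutant, and every strain had 3 L4 libraries. HH76 is adr-1(tm668) with the array blmEx1, which holds a genomic 3XFLAG-adr-1 construct and a green fluorescent marker under rab3 regulation. HH134 carries the same array in an adr-1(tm668);adr-2(ok735) background. BB21, the negative control, is adr-1(tm668);adr-2(ok735) without the array, so it lacks adr-2 as well as the tag, whereas HH76 keeps adr-2. An array of this kind is extrachromosomal and can be lost from cells, and each mutant is 1 strain. All animals grew at 20 degrees on the bacterium OP50, hypochlorite freed the embryos, and L4 cultures started from hatchlings held 24 hours without food.

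The cuticle of the worm is an extracellular coat made largely of collagens that the underlying epidermis secretes. A first cuticle is laid down late in embryogenesis and a fresh one is made at every moult, so that collagen genes are switched on in waves, some at all moults and some at 1 stage only. Each chain is folded and hydroxylated in the endoplasmic reticulum, trimmed outside it and then cross-linked into the coat. Mutations in collagens named for body shape (dpy, rol, sqt, bli) can give visible defects, whereas most numbered col genes are known from sequence or expression.

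Each value below is the authors' mean of normalised reads over the libraries of a strain, so it has no SD, and the 2 alleles of each gene are the nearest thing to a repeat. Each mutant was tabulated beside N2 with its own scaling, so the N2 mean of a gene differs a little between tables, and the same N2 libraries stand behind all 4 mutants of a stage. The means of all transcripts summed to between 14175075.5 and 17398074.9 per strain and table. Depth per library is unknown. In bulk RNA, fewer cells of a type and less RNA per cell cannot be told apart. The log2 ratio of adr-1 to N2 was -2.05 in BB19 and -2.55 in BB2 embryos and -1.69 and -0.90 at L4. That of adr-2 was -3.99 in RB886 and -4.10 in BB3 embryos and -3.61 and -3.52 at L4. In the L4 libraries labelled BB2 the log2 ratio of adr-2 was -0.65. A list of 10 sperm genes, which are active at L4, summed to 116 to 122 reads in N2 embryos and 6564 to 7313 at L4. A list of 10 genes of early embryos summed to 7508 to 7876 in N2 embryos and 3053 to 3404 at L4. Most of the L4 sum lay in mex-3 (1530), mex-5 (1370) and pie-1 (337), by the N2 means tabulated beside BB19. By the same means end-1, end-3, tbx-37, tbx-38 and pes-10 had 55.2 to 858 reads in embryos and 0.707 to 3 at L4.

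In the wildtype the set as a whole was an L4 set. Members held 0.242% of all reads in N2 embryos and 2.01% in N2 L4 larvae, and 130 of the 160 took a larger share at L4 than in embryos. A level of at least 100 reads was reached by 45 members in embryos (28.1%, against 32.9% of all genes) and by 108 at L4 (67.5%, against 36.3%). At least 1000 reads were reached by 8 members in embryos and 66 at L4, while 56 and 31 members lay under 10 reads. Reads are not corrected for transcript length, so the order of members below is an order of reads.

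With the 100-read level at each stage the members fell into 4 classes. Both stages passed in 42 members, L4 alone in 66, embryos alone in 3, and neither in 49. The level is arbitrary near its edge: in embryos col-180 (102) and col-63 (125) lay just inside and col-54 (97.7) and col-93 (87.0) just outside. At L4 col-99 (100) and col-176 (103) lay just inside and col-46 (98.9) and col-186 (90.1) just outside.

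**Figure D1:**
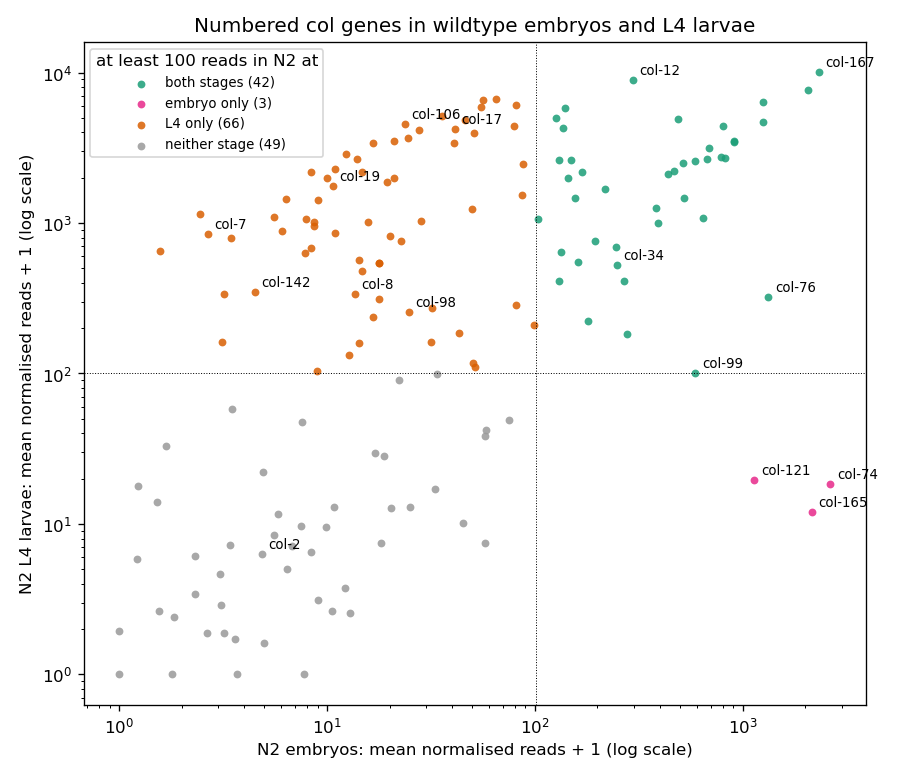
Mean normalised reads plus 1 of each of the 160 members in N2 embryos (horizontal, log scale) and N2 L4 larvae (vertical, log scale), coloured by class, with dotted lines at the 100-read level. The upper left holds 66 members, the upper right 42 and the lower left 49, and col-74, col-165 and col-121 stand alone at the lower right.

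The 3 embryo-only members stood far from the rest. Mean reads of col-74 were 2637 in N2 embryos and 17.5 at L4. For col-165 the pair was 2147 and 11, and for col-121 it was 1133 and 18.7. These are among the 8 most abundant members in embryos, and all 3 nearly vanished from the L4 tables. Of the other leading members in embryos, col-167 (2320), col-166 (2068), col-97 (1247), col-109 (1247), col-117 (910) and col-3 (903) had 3452 to 10005 reads at L4. The exception was col-76, with 1325 reads in embryos and 321 at L4. The 10 members with the most reads in embryos held 52.1% of the reads of the set.

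At L4 the reads were spread more evenly, and the top 10 members held 29.8%. They were col-167 (10005), col-12 (8963), col-166 (7600), col-73 (6647), col-124 (6600), col-97 (6418), col-38 (6070), col-138 (5885), col-71 (5835) and col-161 (5147). Of these, col-12, one of the cuticle collagens whose promoter is used to drive expression in the epidermis, had 295 reads in embryos. The adult-cuticle collagens col-19 and col-7 had 9.68 and 1.67 reads in embryos and 1748 and 846 at L4. col-19 is a target of the LIN-29 transcription factor at the switch from larva to adult. The larval collagen col-17, which LIN-29 represses, had 40.3 reads in embryos and 4245 at L4. The dauer collagen col-2 was near the bottom at both stages, at 3.84 and 5.33 reads. A transmembrane collagen that acts in axon guidance, col-99, ran the other way from most, at 590 reads in embryos and 100 at L4.

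Among members with other known names or roles, col-34 had 246 and 523 reads and col-10 had 824 and 2707. col-112, which the WBcel235 annotation calls bli-6, a gene whose mutants have a blistered cuticle, had 23.6 reads in embryos and 3662 at L4. Of the members studied as targets of the GATA factor ELT-3, col-144 had 788 and 2758 reads, col-142 had 3.48 and 349, and col-141 had 0.686 and 32. Near-identical copies can share reads, and the levels of col-126 and col-127, which are the same in every table, are uncertain for this reason. The near-equal values of col-3 and col-117, of col-10 and col-144 and of col-92, col-93 and col-94 are uncertain likewise, since the sources used here do not say how shared reads were assigned.

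Summed over the set, the reads of members moved in opposite ways at the 2 stages. In embryos the share of reads was 0.390% in BB19, 0.363% in BB2, 0.249% in RB886 and 0.314% in BB3, against 0.242% in N2. At L4 it was 1.46%, 1.63%, 1.81% and 1.90% in the same order, against 2.01% in N2. All 4 mutants thus lay above N2 in embryos and below it at L4, with the adr-1 alleles farthest out at both stages and RB886 nearest to N2 in embryos. No test applies to these sums, and all 4 rest on the same N2 libraries. The median log2 ratio over all 160 members, with 1 read added to each mean, was 0.38, 0.32, 0.06 and 0.21 in embryos of BB19, BB2, RB886 and BB3. At L4 it was -0.50, -0.27, -0.10 and -0.10, while the median over all genes lay between 0.00 and 0.01 in the 8 comparisons.

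A member is said below to have risen or fallen where its adjusted p in the authors' deposited table was under 0.05 and the means differed at least 2-fold. The deposited p-values largely measure counting error: as a median per comparison, their z-value was 0.901 to 1.12 times that from counting alone. They can also depart from the ratio of the means. In the authors' deposited table of BB3 at L4, col-19 had an adjusted p of 0.594 at means of 1780 and 2050, and col-12 one of 7.63e-41 at 9150 and 8690. The fold threshold does not rest on that p. Differences between strains were not tested.

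In BB19 embryos 16 of the 159 members with a p-value rose and 17 fell, or 10.1% and 10.7%, against 2.67% and 0.451% of all genes. In BB2 embryos 13 of 160 rose and 1 fell, against 5.56% and 0.353%. In RB886 embryos none of 159 rose and 1 fell, against 0.717% and 0.255%. In BB3 embryos 8 of 159 rose and none fell, against 1.37% and 0.202%. At adjusted p alone in the authors' deposited tables, 65, 67, 34 and 49 members were higher in BB19, BB2, RB886 and BB3 embryos. These were 40.9%, 41.9%, 21.4% and 30.8% of members, against 13.2%, 18.7%, 9.26% and 10.4% of all genes. By the same criterion 22, 10, 13 and 9 were lower, or 13.8%, 6.25%, 8.18% and 5.66%, against 16.8%, 16.7%, 8.93% and 5.83%.

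**Figure D2:**
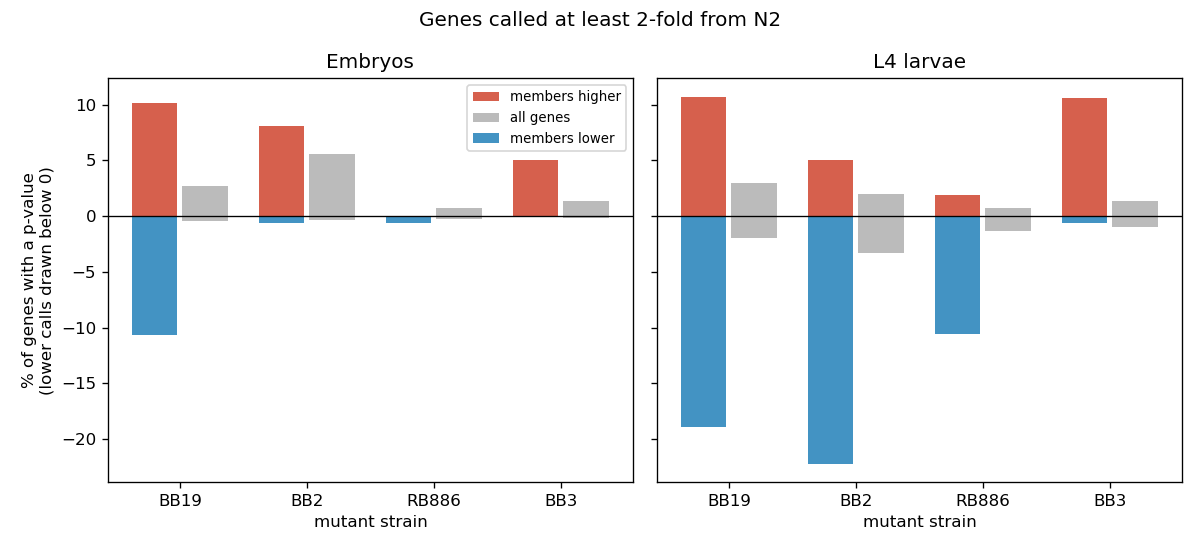
Percent of genes with a p-value that were at least 2-fold from N2 at a deposited adjusted p under 0.05, drawn upwards for higher and downwards for lower, for members (coloured) and all genes (grey) in each mutant strain. In embryos lower calls are frequent among members in BB19 alone (10.7%), and at L4 the lower bars of BB19 (18.9%) and BB2 (22.2%) are the longest.

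The risen members of embryos came from 3 classes. The both-stages class of 42 members held 7 of those in BB19, 4 in BB2 and 2 in BB3. The L4-only class of 66 held 6, 5 and 6, and the class below 100 reads at both stages 3, 4 and none. Of all genes of the both-stages class 0.294%, 0.835% and 0.0470% rose in the order BB19, BB2, BB3. Of all genes of the L4-only class 9.14%, 11.9% and 4.07% rose. The share of L4-only members that rose was thus above that of their class in BB3, but not in BB19 or BB2. The both-stages class is described first. Mean reads of col-12 rose from 289 to 766 in BB19, from 300 to 678 in BB2 and from 289 to 632 in BB3. In RB886 its means were 303 and 435, a log2 ratio of 0.52. The values of col-13, which lies beside col-12, were 132 to 349, 137 to 307, 138 to 196 and 132 to 289 in the order BB19, BB2, RB886, BB3. col-12 and col-13 may share reads and cannot be counted as independent. Mean reads of col-58 rose from 130 to 299 in BB19 and from 135 to 272 in BB2, and were 130 and 236 in BB3. Those of col-180 rose from 100 to 256 in BB19 and from 104 to 221 in BB2, and were 100 and 187 in BB3. Each of these 4 members lay lowest in RB886 among the mutants by its ratio to N2.

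Risen members of the L4-only class had fewer reads in embryos. Mean reads of col-156 rose from 6.69 to 23.5 in BB19, from 6.93 to 21.9 in BB2 and from 6.68 to 24.7 in BB3, and were 7.02 and 10.8 in RB886. Those of col-147 rose from 7.47 to 24.3, 7.75 to 27.8 and 7.48 to 22 in BB19, BB2 and BB3, and were 7.85 and 12.9 in RB886. For col-146 the values were 7.53 to 21.3, 7.81 to 28.9 and 7.53 to 20 in the 3 strains and 7.9 and 14.2 in RB886. These 3 members rested on few reads, and other members of the class had more. Mean reads of col-91 rose from 26.6 to 82.2 in BB19, 27.6 to 81.9 in BB2 and 26.6 to 59.8 in BB3, with log2 ratios of 1.63, 1.57 and 1.17. Those of col-39 rose from 83.6 to 222 in BB19 and from 83.5 to 197 in BB3, and were 86.8 and 171 in BB2. Near the 100-read level, col-93 rose from 85.2 to 188 in BB19 and col-54 from 99.3 to 213 in BB2. In the class below 100 reads at both stages, col-186 rose from 21.7 to 45.5 in BB2, col-66 from 17.4 to 35.5 in BB19 and col-114 from 1.32 to 8.34 in BB2.

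Below the 2-fold line, the members abundant at both stages lay higher in embryos of 3 mutants almost throughout. Their median log2 ratio was 0.76 in BB19, 0.52 in BB2 and 0.46 in BB3, with 40, 38 and 38 of the 42 above 0. In RB886 it was 0.05, with 26 of 42 above 0. The medians of all genes with 100 reads at both stages were -0.07, -0.08, -0.01 and 0.01 in the order BB19, BB2, RB886, BB3. As examples, col-167 had means of 2270 and 3950 in BB19, 2360 and 3190 in BB2, 2380 and 2440 in RB886, and 2270 and 3470 in BB3. The embryo-only member col-74 had 2580 and 4470, 2680 and 5010, 2710 and 2600, and 2580 and 3560. Not every abundant member followed: col-121 had 1110 in both N2 and BB19, and 1160 and 941 in RB886. For col-76 the log2 ratios were 0.11, -0.10, -0.20 and -0.09 in the order BB19, BB2, RB886, BB3, and for col-99 they were 0.23, -0.18, 0.16 and 0.05.

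The 17 members that fell in BB19 embryos had N2 means of 4.47 to 63 reads, and 16 of them belonged to the L4-only class of 66 members. Of all genes of that class 1.85% fell. Mean reads of col-73 fell from 63 to 14.2, those of col-17 from 39.6 to 8.38 and those of col-106 from 22.1 to 4.22. The means of col-112 (bli-6) fell from 23.2 to 4.77 and those of col-49 from 19.5 to 5.25. Those of col-19 were 9.47 in N2 and 0.313 in BB19, of col-139 12.6 and 0.826, and of col-20 7.84 and 0.626. In N2 these members were abundant at L4 and scarce in embryos, and in BB19 embryos some were close to 0.

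None of the 17 passed the rule in another mutant, but some lay below N2 there too, by less than in BB19. In the order BB2, RB886, BB3 the log2 ratios were -0.78, -0.79 and -0.64 for col-73 and -0.94, -0.65 and -0.77 for col-175. Others did not lie below N2 throughout, such as col-129, at 0.03, -0.35 and 0.12. Means of col-17 were 41 and 24.4 in BB2, 41.4 and 20.8 in RB886, and 39.4 and 28.3 in BB3, and those of col-19 were 9.81 and 8.18, 9.93 and 10.3, and 9.49 and 4.96. In the same BB19 embryos the 6 yolk genes, which adult hermaphrodites express, summed to 96.3 reads against 164 in N2, with 2 of the 6 fallen, at N2 means of 18.3 to 39.4. Their sums were 175 against 170 in BB2, 221 against 172 in RB886 and 132 against 164 in BB3. Whether tissue of adults or late larvae among the embryos had a part in the BB19 values was not tested. The 1 member that fell in BB2 embryos, col-135, had 3.99 and 0.921 reads. The 1 that fell in RB886 embryos, col-98, had 24.3 and 11.7, a log2 ratio of -1.05 with an adjusted p of 0.00158 in the authors' deposited table.

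**Figure D3:**
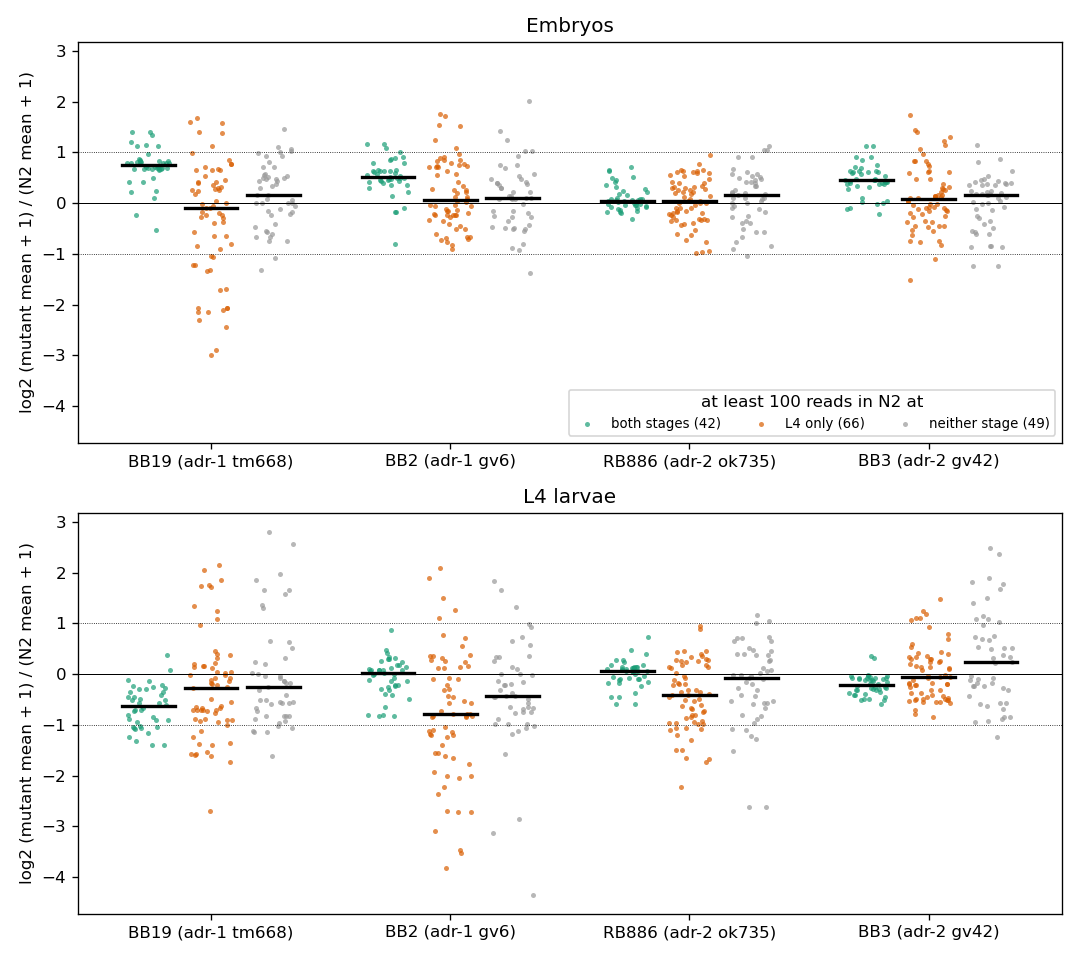
Log2 of mutant over N2, each mean with 1 read added, for every member of 3 classes (points) and the class median (black bar) in each mutant, in embryos (top) and at L4 (bottom), with dotted lines at 2-fold. In embryos the both-stages class sits above 0 except in RB886, and at L4 it sits below 0 in BB19 (median -0.63) while the L4-only class spreads downwards in BB2 (median -0.79). The median of all genes of the L4-only class, not drawn, was -0.27 in BB2 at L4.

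At L4 17 of 159 members rose and 30 fell in BB19, or 10.7% and 18.9%, against 3.00% and 1.97% of all genes. In BB2 8 of 158 rose and 35 fell, against 1.96% and 3.35%. In RB886 3 of 160 rose and 17 fell, against 0.769% and 1.34%. In BB3 17 of 160 rose and 1 fell, against 1.33% and 0.942%. At adjusted p alone in the authors' deposited tables, 30, 34, 38 and 38 members were higher in BB19, BB2, RB886 and BB3 at L4. These were 18.9%, 21.5%, 23.8% and 23.8% of members, against 17.3%, 16.2%, 9.42% and 8.50% of all genes. By the same criterion 89, 73, 56 and 69 were lower, or 56.0%, 46.2%, 35.0% and 43.1%, against 15%, 18.4%, 8.06% and 8.39%.

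The members that fell at L4 were of different classes in the different strains. In BB19 11 of the 42 both-stages members and 13 of the 66 L4-only members fell. Of all genes of these classes 0.893% and 3.82% fell. In BB2 the numbers of members were none and 27, against 1.26% and 5.80% of all genes of the classes. In RB886 they were none and 12, against 0.176% and 2.38%. At adjusted p alone in the authors' deposited tables, 17 members of the both-stages class were lower and 14 higher in BB2. In RB886 10 were lower and 19 higher. Over all genes of any class, 18.4% were lower and 16.2% higher in BB2, and 8.06% and 9.42% in RB886. The shares at adjusted p alone for all genes of the both-stages class were not computed. The N2 means that define the classes are also the denominators of the ratios, so a class is not independent of them. In the order BB19, BB2, RB886, BB3 the L4-only members had median log2 ratios of -0.26, -0.79, -0.42 and -0.06 at L4. Those of all genes of the L4-only class were -0.27, -0.27, -0.06 and -0.04.

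The adult-cuticle collagens col-19 and col-7 were split between strains: they fell in 1 allele of each gene and stayed within 2-fold of N2 in the other. Mean reads of col-19 were 1820 in N2 and 2010 in BB19, and 1780 and 2050 in BB3. They fell from 1630 to 406 in BB2 and from 1760 to 766 in RB886, by 2.01 and 1.20 on the log2 scale. For col-7 the means were 879 and 563 in BB19, 789 and 67.7 in BB2, 853 and 266 in RB886, and 862 and 956 in BB3. Its neighbour in the genome, col-62, had 826 and 520, 740 and 65.7, 801 and 253, and 810 and 860, close to col-7 in each strain. For col-19, col-7 and col-62, then, 1 adr-1 allele and 1 adr-2 allele lay low, and the other allele of each gene stayed within 2-fold of N2.

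Other members divided in the same manner, and for some the other alleles lay above N2. Of the 4 described next, col-8 belonged to the L4-only class and col-143, col-95 and col-135 had under 100 reads at both stages in N2. Mean reads of col-8 rose from 349 to 1170 in BB19 and from 342 to 808 in BB3, whereas BB2 went from 313 to 21.2 and RB886 from 338 to 72. For col-143 they rose from 59.6 to 423 and from 58.5 to 204, and fell from 53.5 to 26.5 and from 57.8 to 19.6, in the same order of strains. At a lower level col-95 rose from 13.6 to 85.3 and from 13.3 to 29.4, and fell from 12.2 to 0.503 and from 13.2 to 1.31. Each of these 3 members lay at least 2-fold above N2 in BB19 and BB3 and at least 2-fold below it in BB2 and RB886.

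In col-119, of the L4-only class, the means were 1060 and 2070 in BB19 and 1040 and 1390 in BB3, just short of 2-fold in the first. They fell from 952 to 146 in BB2 and from 1030 to 307 in RB886. In col-135 they were 21.8 and 26 in BB19, rose from 21.4 to 46.8 in BB3, fell from 21.2 to 2.6 in RB886, and were 19.6 in N2 and listed at 0 in BB2. Larger by reads were col-124 (6150 to 1940 in BB2 and 6660 to 3830 in RB886), col-106 (4240 to 1890 and 4590 to 2850) and col-129 (3160 to 826 and 3420 to 1640). In BB19 these 3 had log2 ratios of 0.16, -0.20 and -0.01, and in BB3 of 0.35, 0.23 and 0.53. These abundant members were thus lowest in BB2, next lowest in RB886, and near or above N2 in BB19 and BB3.

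**Figure D4:**
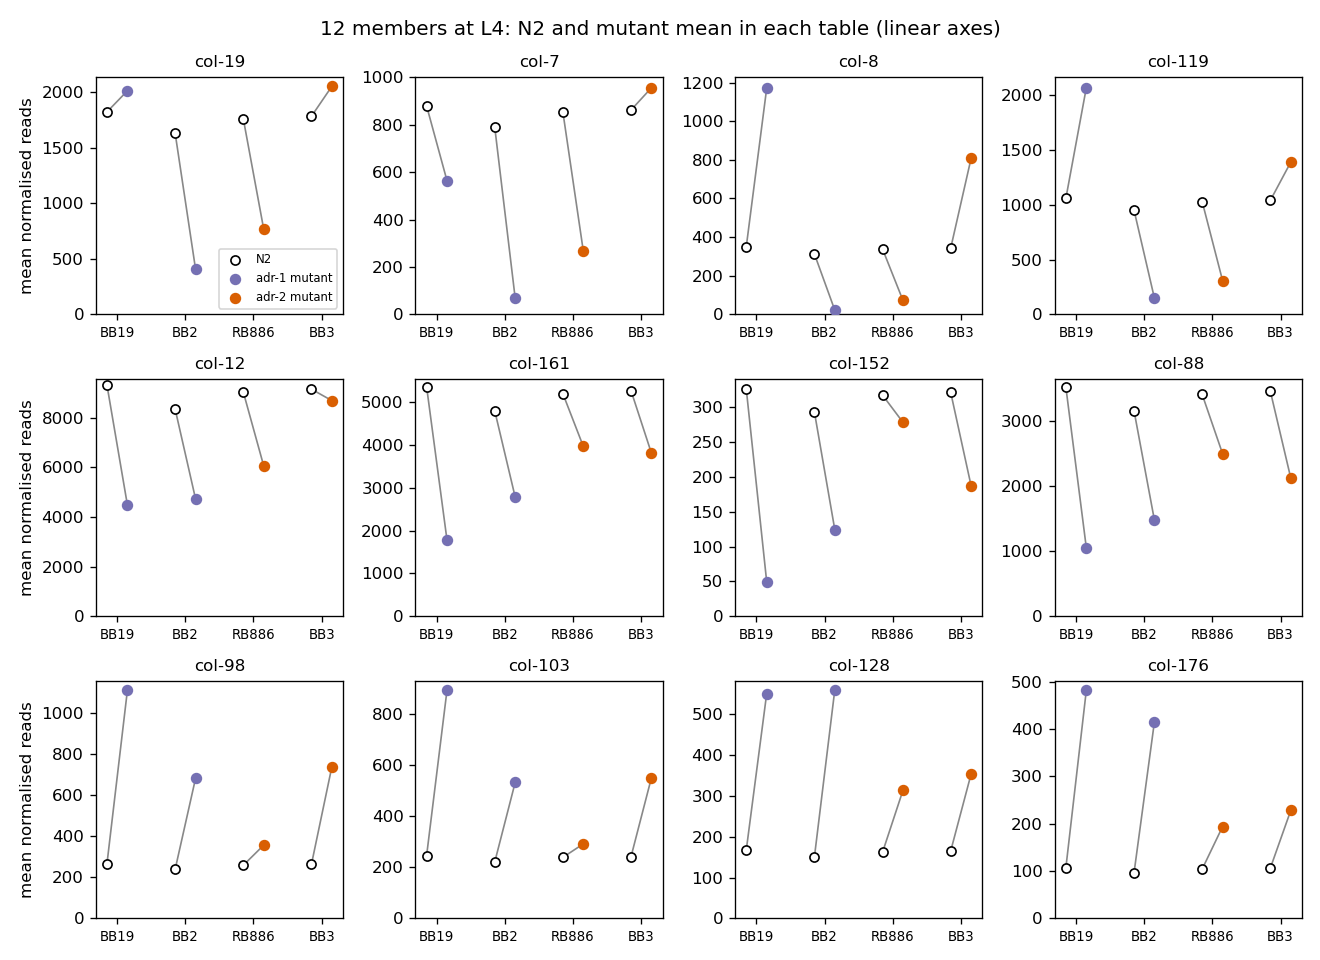
Mean normalised reads of 12 members in N2 (open circles) and in each mutant (filled circles, joined to the N2 mean of the same table) at L4, on linear axes that start at 0. The top row falls 2-fold in BB2 and RB886, the middle row lies farthest below N2 in BB19, and the bottom row lies above N2 in each strain.

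Yolk genes, which hermaphrodites express as adults, were also lowest against N2 in BB2 and RB886. The 6 yolk genes had 1590 to 8570 reads each in N2 at L4, and they summed to 33790 against 24850 in BB19 and to 6613 against 22290 in BB2. In RB886 they summed to 14080 against 24120 and in BB3 to 20770 against 24410. All 6 fell in BB2 and 1 of 6 fell in RB886. None of the 6 rose or fell 2-fold in BB19 or BB3, although in the authors' deposited tables all 6 passed at adjusted p alone, higher in BB19 and lower in BB3. BB2 lay lowest and RB886 next lowest by their ratio to N2, both in the yolk sum and in col-19, col-7 and col-8. In BB19 the yolk sum was above N2 while col-7 lay below it. In BB3 the yolk sum was below N2 while col-19, col-7 and col-8 lay above it. The part of larval age in the collagen values was not tested.

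Another group fell most in BB19. Mean reads of col-152 fell from 326 to 49.6 in BB19 and from 293 to 124 in BB2, and were 317 and 278 in RB886 and 321 and 187 in BB3. Those of col-88 fell from 3510 to 1050 in BB19 and from 3150 to 1470 in BB2, and were 3400 and 2490 in RB886 and 3450 and 2120 in BB3. For col-161 the means were 5350 and 1770 in BB19, 4790 and 2780 in BB2, 5190 and 3960 in RB886, and 5260 and 3800 in BB3. These members lay below N2 in all 4 mutants, past 2-fold in BB19 and, for col-152 and col-88, in BB2. The means of col-120 were 1940 and 634 in BB19, 1740 and 1210 in BB2, 1880 and 1610 in RB886, and 1900 and 1360 in BB3.

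Among those abundant at both stages, col-12 fell from 9310 to 4480 in BB19 and had 8350 and 4730 in BB2, 9040 and 6060 in RB886, and 9150 and 8690 in BB3. In the same way col-13 fell from 4440 to 2150 and col-58 from 669 to 254 in BB19. col-12, col-13 and col-58 were thus higher than N2 in embryos and lower at L4 in BB19. So was col-91, which fell at L4 from 1070 to 417 in BB19 and from 956 to 435 in BB2, and had means of 1030 and 664 in RB886 and 1050 and 721 in BB3. Over the 42 members of the both-stages class, 40 lay below 0 at L4 in BB19 and 40 in BB3, with medians of -0.63 and -0.21. In BB2 and RB886 the medians were 0.02 and 0.07, with 19 and 16 members below 0. The medians of all genes of the class were 0.04, 0.03, 0.01 and -0.00 in the order BB19, BB2, RB886, BB3. In BB19 and BB3 nearly the whole class lay lower, in BB2 it was close to evenly divided, and in RB886 26 of the 42 lay above 0.

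The larval collagen col-17 stayed within 2-fold of N2 at L4. Its means were 4410 and 3140 in BB19, 3950 and 5020 in BB2, 4280 and 5840 in RB886, and 4340 and 4290 in BB3. Those of col-73 were 6900 and 4330, 6190 and 7470, 6700 and 8830, and 6800 and 6550. These abundant members lay above N2 in BB2 and RB886, where col-19 and col-7 lay below it. Both lie in the genome beside col-20, an L4-only member whose L4 ratios were 0.40, -1.61, -0.94 and 0.30 in the order BB19, BB2, RB886, BB3. The ratios of col-38, in the same order, were -0.73, 0.37, 0.26 and -0.20.

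Members that rose at L4 were fewer than those that fell in BB19, BB2 and RB886, and in BB3 they were more, at 17 against 1. Mean reads of col-98 rose from 266 to 1110 in BB19, from 238 to 681 in BB2 and from 262 to 737 in BB3, and were 258 and 356 in RB886. Those of col-176 rose from 107 to 482, 96 to 416 and 106 to 228 in the same 3 strains, and were 104 and 194 in RB886. Those of col-128 rose from 167 to 551, 150 to 561 and 165 to 354, and were 162 and 314 in RB886. Those of col-103 rose from 246 to 896, 221 to 533 and 242 to 552, and were 239 and 292 in RB886. In RB886 these 4 members were above N2 without reaching 2-fold. col-46 rose in every strain, from 103 to 328, 92.1 to 331, 99.7 to 200 and 101 to 226 in BB19, BB2, RB886 and BB3. The member beside it in the genome, col-47, rose from 48.1 to 125, 43.2 to 138, 46.7 to 106 and 47.4 to 97.1. The 4 comparisons share their N2 libraries. Both neighbours were scarce at L4 in N2, and in all 4 mutants they lay at least 2-fold higher.

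Smaller members also rose. Mean reads of col-158 rose from 6.72 to 27.1 in BB19, from 6.03 to 13 in BB2 and from 6.62 to 27.5 in BB3, and were 6.53 and 9.43 in RB886. Those of col-84 rose from 6.74 to 18 in BB19, 6.55 to 14.5 in RB886 and 6.63 to 23.3 in BB3, and were 6.04 and 12.3 in BB2. In BB3 the embryo-type members col-74 and col-165 rose at L4 too, from 17.9 to 37 and from 11.3 to 27.9, while col-165 fell from 11.5 to 3.85 in BB19. These low values rest on few reads per library.

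Some members fell in 3 strains. Mean reads of col-137 fell from 671 to 231 in BB19, from 602 to 116 in BB2 and from 651 to 266 in RB886, and were 659 and 364 in BB3. Those of col-148 fell from 17.5 to 5.06 in BB19, from 17.3 to 6.75 in BB3 and from 17 to 7.48 in RB886, while BB2 had 15.7 and 8.06. col-148 was the only member to fall in BB3 at L4. Both members lay below N2 in all 4 strains. The pair col-126 and col-127, identical in every table, had 563 and 347 in BB19, 505 and 76.6 in BB2, 546 and 192 in RB886, and 552 and 387 in BB3.

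The remaining members with known roles moved little or in part. col-142 rose from 363 to 922 in BB19 and from 356 to 746 in BB3, and had 325 and 308 in BB2 and 352 and 223 in RB886. Its neighbour col-141 had 33.2 and 41.5, 29.8 and 21.6, 32.2 and 26.4, and 32.6 and 46.5 in the order BB19, BB2, RB886, BB3. The L4 ratios of col-10 were -0.41, 0.03, 0.15 and -0.41 and those of col-34 were -0.60, 0.01, 0.13 and -0.08, in that order. col-99 lay above N2 in every strain at L4, with ratios of 0.39, 0.89, 0.74 and 0.31, none of them 2-fold. col-2 had 4.23 to 9.8 reads in the mutants and 4.96 to 5.53 in N2, and passed the rule at neither stage.

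**Figure D5:**
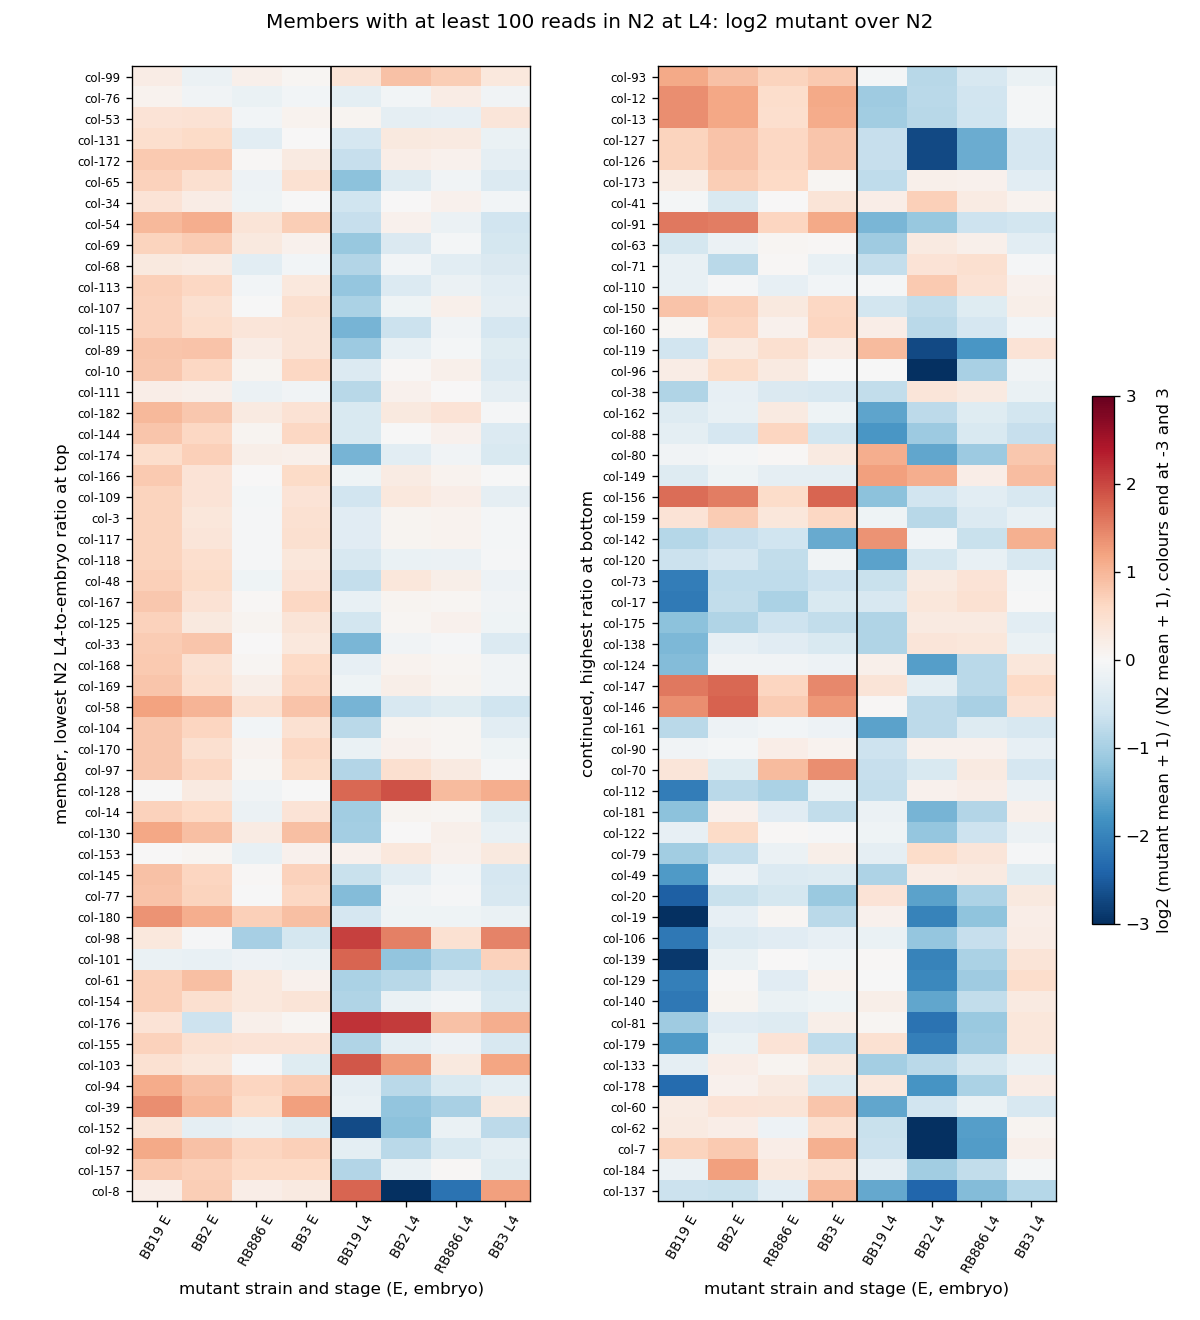
Log2 of mutant over N2, each mean with 1 read added, for the 108 members with at least 100 reads in N2 at L4 (rows, ordered from the lowest to the highest L4-to-embryo ratio in N2) in the 4 mutants as embryos (E, left 4 columns) and at L4 (right 4 columns); red is higher than N2 and blue lower. The bottom of the right panel holds col-19 (-2.01 in BB2) and other members that are blue in BB2 and RB886 at L4, and the left panel is mostly red in embryos of BB19, BB2 and BB3.

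Few of the genes that act in making, secreting and cross-linking collagen passed the 2-fold rule. Of 16 such genes, which include the prolyl hydroxylases dpy-18 and phy-2, the disulfide isomerase pdi-2 and the dual oxidase bli-3, 1 rose in BB19 embryos and none rose in the other 7 comparisons. It was the peroxidase gene mlt-7, whose mean reads rose from 264 to 538. The 1 that fell in any comparison was doxa-1, the dual oxidase maturation factor, from 172 to 74.9 in BB2 at L4. Their summed reads at L4 were 47394 against 46525 in BB19, 51422 against 41725 in BB2, 48727 against 45187 in RB886 and 45208 against 45803 in BB3. At adjusted p alone in the authors' deposited tables, 3 to 9 of the 16 were higher or lower per direction at L4. Of 11 regulators of cuticle genes, among them lin-29, nhr-23, blmp-1 and elt-3, none passed 2-fold in the 8 comparisons, and 7 were higher and 1 lower at adjusted p alone in the deposited table of BB19 at L4.

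Collagens named for body shape rose and did not fall by the 2-fold rule at L4. Of the 19 measured, 6 rose in BB19, 7 in BB2, 1 in RB886 and 2 in BB3, and none fell. Mean reads of dpy-10 rose from 693 to 1970 in BB19, 622 to 2220 in BB2, 674 to 1450 in RB886 and 684 to 1510 in BB3. dpy-2, dpy-3, dpy-7, dpy-8 and dpy-9, which form the furrow collagens of the cuticle together with dpy-10, rose in BB19 and BB2, for example dpy-7 from 932 to 1900 and from 836 to 2360. The median log2 ratio of these 19 genes was -0.05, 0.71, 0.51 and 0.16 in BB19, BB2, RB886 and BB3, beside -0.50, -0.27, -0.10 and -0.10 for the numbered members. The difference was not tested. In that order 9, 0, 1 and 1 of the 19 were lower at adjusted p alone in the authors' deposited tables. In embryos none of the 19 rose, while dpy-4, dpy-13 and sqt-1 fell in BB19 and rol-6 fell in BB3.

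Some genes of the moult itself also rose at L4. Of 13 such genes 5 rose in BB19, 5 in BB2, 1 in RB886 and 2 in BB3, and none fell. By the adjusted p alone, as the authors' deposited tables give it, 8, 11, 11 and 8 were higher and 4, 1, 0 and 1 lower in that order, and nas-36, an astacin protease of the moult, had log2 ratios of -0.83, -0.34, -0.10 and -0.51. Their summed reads were 31738 against 19824 in BB19, 37416 against 17778 in BB2, 30682 against 19254 in RB886 and 26219 against 19560 in BB3, with mlt-11 the largest part, at 12300 against 6070 in BB19. Mean reads of let-653, a zona pellucida domain protein of the apical matrix, rose by log2 ratios of 2.31, 2.19, 1.23 and 1.26 in the same order. Transcripts of moulting genes cycle within each larval stage, and the part of each culture's position in that cycle in its collagen levels was not tested. Sperm genes, a marker of germline age at L4, had none of 10 past 2-fold in any mutant. At adjusted p alone, by the authors' deposited table of each strain, 8 of the 10 were lower in BB19, 8 in BB2, 1 in RB886 and 2 in BB3.

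In young adults, RNA pulled down with FLAG-tagged ADR-1 was compared by the authors with that of the untagged control. The authors' deposited table for HH76 lists 8 of the 160 members as bound, or 5%, against 3.70% of all genes. Of the 108 members with at least 100 reads at L4 it lists 4, or 3.70%, against 7.64% of all genes at that level, so the share depends on which genes are counted. For HH134, which lacks adr-2, the authors' deposited table lists 16 members, or 10%, against 3.61% of all genes. At 100 reads or more at L4 it lists 12, or 11.1%, against 7.72%. Neither table states which genes were tested, and whether the 2 strains differed was not tested.

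The 6 members listed in both tables were col-50, col-99, col-106, col-108, col-143 and col-179. The overlap of these tables over all listed genes was not computed, so that number says nothing particular to members. In the authors' deposited table for HH76, col-108 had a log2 fold change of 4.21 (SE 1.42), col-69 of 3.98 (SE 1.38), col-86 of 3.46 (SE 1.09), col-50 of 3.12 (SE 0.90) and col-99 of 2.03 (SE 0.43). In the authors' deposited table for HH134, col-108 had 4.32 (SE 1.53), col-50 had 2.56 (SE 0.82), col-143 had 2.21 (SE 0.60) and col-99 had 1.89 (SE 0.52). The first 4 of these for HH76 had wide errors, and col-108, col-86 and col-50 had at most 5.17 reads in N2 at L4. More firmly placed were col-106, at 1.48 (SE 0.38) in HH76 and 1.78 (SE 0.25) in HH134, and col-179, at 1.16 (SE 0.35) and 1.60 (SE 0.29), again from the authors' deposited tables. A further entry for HH134, col-55, has a log2 fold change of 20.70 with an SE of 183.51 in the authors' deposited table, so its size is not estimated.

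Of the members described above, col-8, col-98, col-103 and col-20 were listed for HH134, at deposited log2 fold changes of 0.79, 1.38, 1.35 and 1.13 in the authors' deposited table. The adult-cuticle collagens col-19 and col-7 were listed for neither strain, nor were col-46 and col-47. The list holds bound genes alone, so a missing name says only that it was not listed.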

How the data were processed

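Expression was measured in 30 libraries of embryos and L4 larvae, and bound RNA in 12 libraries of young adults. Bowtie, DESeq and the build ce10 are named, per the submitters' processing notes. Versions, settings and the treatment of reads shared by copies are not stated there. Per the labels, ribosomal RNA was removed and libraries were stranded.

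The deposited expression signal is the authors' mean normalised read count per strain, scaled anew for each pair of N2 and mutant. The deposited ratio (fold change) is the authors' mutant mean over N2 mean. The p-value and adjusted p come from the authors, and a Benjamini-Hochberg adjustment of the deposited p gave the deposited adjusted p within 0.01. For bound RNA the authors deposited log2 fold changes over the control, beside their standard error and test statistic (a score), per the file headers. The sources used here do not say how inputs entered. Lists of gene names were deposited too.

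Members, classes and gene lists were chosen with earlier results of these data known. A member was called at a deposited adjusted p under 0.05, over all transcripts of a table, and at least a 2-fold ratio of means. Log2 ratios of single members are plain ratios of the deposited means, and medians used a pseudocount of 1. N2 levels average 4 tables after scaling. The tables hold group means, so no count model, left-out library or replicate block could be fitted, and no SD or interval is given. The call and median steps were tested on a simulated table, and the class step was not.

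Named were the 5 members with the largest rise and fall per comparison with an average of at least 10 reads, the 10 with most reads per stage (reads in place of reads per length, since no transcript lengths of the authors' build were used), members with known roles, the 5 with the highest bound fold change per strain, and members with identical means. col-20, col-54, col-58, col-66, col-93, col-103, col-114, col-129, col-137, col-139, col-180 and col-186 were chosen after their values were seen. WBcel235 names matched 160 members by sequence name and were used for names and neighbours only. Of the body shape list, bli-6 is the member col-112 and ram-4 was not matched. Analyses used Python 3.11.15, pandas 2.3.3, numpy 2.4.6, scipy 1.17.1 and matplotlib 3.10.9.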

Additional observations from a re-analysis of the deposited data

How the results depend on the processing

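Calls at the 2-fold rule were unchanged or within 1.5 times when a transcript was chosen by its N2 mean of the stage and when members sharing all means were left out. Without the fold threshold the counts of members higher were 65 (BB19), 67 (BB2), 34 (RB886) and 49 (BB3) in embryos and 30, 34, 38 and 38 at L4, and the counts lower were 22, 10, 13 and 9 in embryos and 89, 73, 56 and 69 at L4. These larger counts include members with near-equal means: 8 of 47 in RB886 embryos and 11 of 107 in BB3 L4 differed by under 0.1 on the log2 scale. With a mean of at least 10 reads, 9 members fell in BB19 embryos and 0 in BB2 embryos. There 10 members were lower at an adjusted p alone in the authors' deposited table.

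The median log2 ratio of members with a pseudocount of 10 was 0.19 and 0.17 in BB19 and BB2 embryos, and -0.27, -0.07 and -0.07 in BB19, RB886 and BB3 at L4. With a mean of at least 10 reads it was 0.53 and 0.47 in BB19 and BB2 embryos. Centred on all genes of at least 10 reads it was 0.43 in BB19 embryos and -0.09 in RB886 at L4. At a level of 10 reads 104 members passed in embryos, and at 1000 reads 8 passed in embryos and 66 at L4.

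Grouping by the average of N2 and mutant means, an alternative chosen after seeing the data, moved 9 members between classes. It turned the median of the L4-only class to -0.03 in BB2 embryos and 0.09 in BB3 at L4, and that of the class below 100 reads at both stages to -0.05 in BB3 at L4. The same class moved to -0.46 in BB19 at L4. For these 4 values the cause was not tested. Bound members with a log2 fold change of at least 1 in the authors' deposited tables numbered 8 for HH76 and 13 for HH134.

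No paired analysis was possible because the tables hold group means, which also kept each library from being left out and DESeq2 and edgeR from being run. Depth per library is unknown. The labels give no measure of larval age at harvest, and dates in the titles could not be used as a block. Transcript length was not used, so levels of different members are not compared per length.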

Other observations

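Members that lie beside each other in the WBcel235 gene order are described here by their L4 ratios, with no test. Of 26 adjacent pairs, 18 had at least 100 reads in both genes in N2 at L4. The median absolute difference of their log2 ratios was 0.18 in BB19, 0.07 in BB2, 0.05 in RB886 and 0.10 in BB3. Over all 5778 pairs of members at that level it was 0.69, 0.90, 0.53 and 0.37. Some neighbours are near-identical copies that may share reads, such as col-12 and col-13 or col-3 and col-117, and their part in these values was not tested. Other neighbours differed widely: the largest difference was 1.78 in BB19, 1.96 in BB2, 1.38 in RB886 and 0.75 in BB3.

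The authors' deposited lists of genes by class of change hold some members. The counts of members below are out of 160, and the sizes of the lists stand beside 30304 genes measured. Their list of 374 genes higher in adr-1 embryos holds 8 members (col-12, col-13, col-58, col-91, col-146, col-147, col-156 and col-180). Their list of 265 genes higher in adr-1 mutants at L4 holds 7 (col-46, col-47, col-98, col-103, col-128, col-149 and col-176). Their list of 187 genes lower in adr-1 mutants at L4 holds 4 (col-88, col-91, col-137 and col-152). For adr-2 at L4, 2 of 100 genes in the higher list are members (col-46 and col-47) and 1 of 44 in the lower list (col-148). The adr-2 lists of embryos, with 46 genes higher and 17 lower, hold none, and neither does the list of 7 genes lower in adr-1 embryos. For lists this short beside 30304 genes, holding none says nothing particular to members.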
